A study of Mus musculus with 20 samples.

Results

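The 9 genes described here encode the first enzymes of glycolysis and the enzymes that set the level of their main allosteric activator: the hexokinases Hk1 and Hk2, glucose-6-phosphate isomerase Gpi1, the phosphofructokinases Pfkl, Pfkm and Pfkp, and the bifunctional enzymes Pfkfb2, Pfkfb3 and Pfkfb4. They were chosen by symbol, and all 9 were among the 13688 genes present in all 4 deposited tables. Expression was measured by RNA sequencing in primary cortical neurons of mouse embryos (day 15, 7 days in culture), with 5 libraries in each of 4 groups. Wild-type (WT) neurons and neurons lacking the circular RNA ciRS-7 (KO), made from the Cdr1as locus, were kept for 12 h either in normoxia with 25 mM glucose and 0.2 mM sodium pyruvate (N_WT, N_KO) or under oxygen and glucose deprivation at 1% oxygen without added glucose (OGD_WT, OGD_KO). All 20 libraries, WT included, carry the strain label C57BL/6N-Cdr1asem1Nikr, so the background of the WT cultures is known only from the genotype label.

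Hexokinase traps glucose in the cell as glucose 6-phosphate, the isomerase converts it to fructose 6-phosphate, and phosphofructokinase commits it to glycolysis. The PFKFB enzymes make and degrade fructose 2,6-bisphosphate, a strong activator of phosphofructokinase, and their isozymes differ in the balance of these activities. In brain, Hk1 is the main hexokinase, whereas Hk2, Pfkfb3 and Pfkfb4 are known as genes induced by low oxygen in many cell types, through factors that bind the core letters ACGTG or GCGTG.

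Libraries of total RNA, made with a strand-specific kit, held between 7064141 (N_WT) and 16645001 (OGD_WT) recovered reads over the shared genes, with KO libraries between 7487221 and 14752859. Reads of Cdr1as numbered 545 to 1912 per WT library and 2 to 16 per KO library, in the direction of the genotype labels. The 10 most abundant genes took 16.9% to 24.5% of reads in normoxia and 24.6% to 43.2% under deprivation. All 8 neuron markers had reads in every library. Summed neuron markers ranged from 4517 to 6019 CPM (reads scaled to a common library size) in normoxia and from 2847 to 5612 under OGD, while 8 astrocyte markers summed to 841 to 1483 and 1393 to 2228. Progenitor and proliferation markers summed to 548 to 851 and 975 to 1567. The sums do not show single markers. By limma at an adjusted p under 0.05, 4 of 8 neuron markers were lower under OGD in WT and 5 in KO, and 0 were higher. Of 8 astrocyte markers 5 were higher and 1 (Gfap) lower in WT, and 4 and 0 in KO. Of all genes, 21.6% were higher and 22.8% lower in WT, and 21% and 19.9% in KO. No erythroid marker was among the genes analysed here. In bulk libraries, fewer cells of a type and less RNA per cell cannot be told apart, and the part of cell composition in the changes given next was not tested.

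The promoter windows of the 4 genes that rose under OGD are shown with that of Pfkp, which was not called, so that windows of both kinds can be compared. Each window is RefSeq sequence (GRCm38.p6) from 250 bases before to 50 bases after the annotated start, and capitals mark ACGTG or GCGTG on either strand. Hk2 lies at chr6:82774405-82774704, Gpi1 at chr7:34230287-34230586, Pfkl at chr10:78009758-78010057, Pfkfb3 (the first of 2 windows) at chr2:11553880-11554179 and Pfkp at chr13:6648722-6649021, all on the minus strand.
Hk2: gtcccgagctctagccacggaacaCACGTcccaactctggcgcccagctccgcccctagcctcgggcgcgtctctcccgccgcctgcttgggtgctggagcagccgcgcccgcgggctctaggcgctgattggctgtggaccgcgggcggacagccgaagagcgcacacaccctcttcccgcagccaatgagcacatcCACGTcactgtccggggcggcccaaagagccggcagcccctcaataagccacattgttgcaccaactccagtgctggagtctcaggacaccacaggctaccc
Gpi1: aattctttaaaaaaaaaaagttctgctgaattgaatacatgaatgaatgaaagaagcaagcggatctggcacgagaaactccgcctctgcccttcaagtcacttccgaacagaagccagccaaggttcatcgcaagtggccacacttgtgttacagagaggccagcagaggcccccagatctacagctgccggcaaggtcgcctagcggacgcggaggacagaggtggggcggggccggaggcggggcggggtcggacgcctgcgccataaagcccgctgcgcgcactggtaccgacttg
Pfkl: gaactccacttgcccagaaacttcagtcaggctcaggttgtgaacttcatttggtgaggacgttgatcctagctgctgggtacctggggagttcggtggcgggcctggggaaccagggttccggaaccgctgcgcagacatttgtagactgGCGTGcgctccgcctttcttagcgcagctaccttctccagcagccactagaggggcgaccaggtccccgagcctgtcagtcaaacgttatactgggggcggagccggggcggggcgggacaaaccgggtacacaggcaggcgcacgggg
Pfkfb3: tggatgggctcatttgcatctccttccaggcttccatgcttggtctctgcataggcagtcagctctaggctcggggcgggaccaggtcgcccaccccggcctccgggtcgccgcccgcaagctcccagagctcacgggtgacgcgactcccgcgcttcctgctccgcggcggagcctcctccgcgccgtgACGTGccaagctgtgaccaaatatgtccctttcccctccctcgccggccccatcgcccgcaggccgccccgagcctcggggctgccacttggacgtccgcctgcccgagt
Pfkp: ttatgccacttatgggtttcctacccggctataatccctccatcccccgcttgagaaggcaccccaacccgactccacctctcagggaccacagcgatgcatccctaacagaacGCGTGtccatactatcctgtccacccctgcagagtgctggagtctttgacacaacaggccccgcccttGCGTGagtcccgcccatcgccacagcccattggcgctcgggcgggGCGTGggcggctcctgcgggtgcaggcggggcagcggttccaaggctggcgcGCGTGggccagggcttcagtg

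The Hk2 window held 2 such sites, those of Pfkl and Pfkfb3 1 each, and that of Gpi1 0, while the Pfkp window held 4. The second Pfkfb3 window held 4 by the same count. In this count CACGTG, which reads the same on both strands, gives 2 sites. The second Pfkfb3, first Pfkm and second Pfkfb2 windows each held 1 CACGTG, and the Pfkp window held 0. Among the windows of the other genes that were not called, Hk1 held 0 and 5, Pfkm 3, 2, 1 and 0, Pfkfb2 1, 4 and 1, and Pfkfb4 1, so the counts of both kinds of gene overlapped. Of 32851 mouse promoter windows of the same length, 43.8% held at least 1 site, 20.6% at least 2 and 3.86% at least 4. ACGTG was present in 19.6% of windows and GCGTG in 32.4%. The windows shown were 57.3% (Gpi1) to 69.7% (Pfkfb3) G and C, against a median of 52.7% over all windows. These shares were not matched for that. A match is a description of letters, not a bound site.

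In both genotypes Hk2, Gpi1, Pfkl and Pfkfb3 rose, and Hk1, Pfkm, Pfkp, Pfkfb2 and Pfkfb4 did not pass the test. By limma at a Benjamini-Hochberg adjusted p under 0.05, 4 of 9 genes were called higher and 0 lower in WT, where 44.3% of all 14235 genes were called (21.6% higher, 22.8% lower). The same 4 of 9 were called higher and 0 lower in KO, where 40.9% of 14375 genes were called (21% higher, 19.9% lower). The median log2 fold change of the 9 genes was 0.14 in WT and 0.18 in KO, against -0.03 and 0.00 for all genes. These 2 comparisons use different libraries. When libraries were scaled by total reads instead, the median of all genes moved to -0.30 and -0.28 and the calls split into 1625 higher and 5744 lower in WT (3069 and 3244 otherwise) and 1479 and 5289 in KO (3021 and 2863 otherwise), and the same 4 genes stayed called higher.

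**Figure D1:**
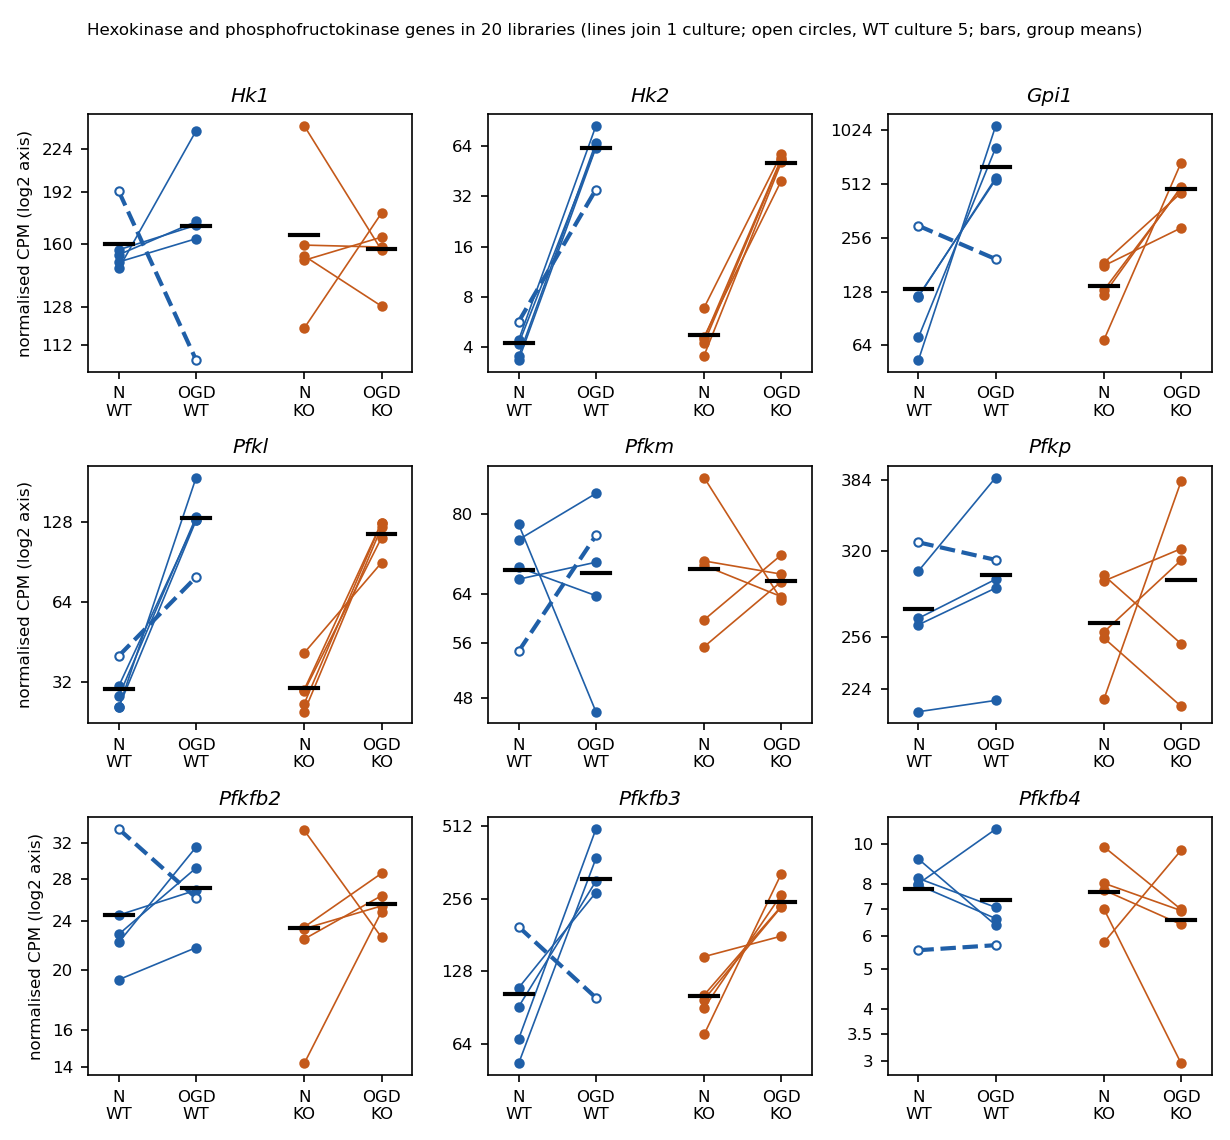
Normalised CPM (log2 axis) of the 9 genes in 20 libraries, with lines joining the normoxia (N) and deprivation (OGD) libraries of 1 culture and short bars at group means. Hk2 and Pfkl separate the conditions in both genotypes, and WT culture 5 (open circles, dashed) falls for Gpi1 and Pfkfb3, from 299 to 195 and from 196 to 99.2 CPM.

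Hk2, the hexokinase of muscle, fat and many tumours, changed most. Its level was 3.52, 4.41, 4.18, 3.34 and 5.68 CPM in N_WT cultures 1 to 5, and 67.2, 84.6, 63.1, 62.8 and 35.1 CPM in OGD_WT. In N_KO it was 4.49, 4.60, 4.23, 6.88 and 3.55 CPM, and in OGD_KO 54.0, 39.8, 53.0, 57.4 and 51.1 CPM. Every OGD library lay above every normoxia library, and the lowest was OGD_WT culture 5. The log2 fold change was 3.72 ± 0.19 (SE) in WT, a 13.2-fold rise with a 95% interval of 9.97 to 17.4 (adjusted p = 1.15e-11, limma). In KO it was 3.34 ± 0.16, a 10.2-fold rise with an interval of 8.0 to 12.9 (adjusted p = 2.59e-10, limma). Among all genes ordered by rise, Hk2 was number 6 in WT and 13 in KO. Normoxia values rest on 36 to 69 reads per library.

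Hk1, the constitutive brain hexokinase (GRCm38, chr10:62268855-62379908, minus strand), ranged from 147 to 193 CPM in N_WT and from 106 to 239 CPM in OGD_WT. In N_KO the range was 119 to 243 CPM and in OGD_KO 128 to 178 CPM, so the groups overlapped throughout. The log2 fold change was 0.04, with a 95% interval of -0.32 to 0.40, in WT and -0.03 (-0.40 to 0.34) in KO.

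Gpi1 showed the widest spread between cultures of the genes that rose. In N_WT it was at 121.0, 52.9, 119.9, 70.9 and 299 CPM, and in OGD_WT at 543, 1085, 554, 819 and 195 CPM. In N_KO it was at 130.4, 179, 123, 185 and 68.5 CPM, and in OGD_KO at 487, 291, 493, 458 and 675 CPM. The WT groups overlapped through culture 5, whose normoxia library was the highest and whose OGD library was the lowest of its group, and the KO groups did not overlap. The log2 fold change was 2.31 ± 0.38 (SE) in WT (4.95-fold, 95% interval 2.87 to 8.55, adjusted p = 5.38e-05, limma) and 1.85 ± 0.25 in KO (3.60-fold, 2.52 to 5.14, adjusted p = 1.25e-05). With the replicate block, which pairs the libraries of a culture, the WT SE was 0.53 and the adjusted p 0.0063 (limma). The log2 responses of the single WT cultures had an SD of 1.88. Without WT culture 5 the WT value was 3.04. Of the 50-base words of Gpi1 transcripts, 15.8% also occurred in other genes, among them the opposite-strand lincRNA Gm26762. Words were matched on both strands, and how reads were counted is not given in the sources used here, so its reads are in part uncertain.

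Pfkl, named for liver, was the phosphofructokinase that rose. It was at 31.0, 25.7, 28.3, 25.8 and 40.1 CPM in N_WT and at 130.2, 188, 133, 129.6 and 79.3 CPM in OGD_WT. In KO it went from 29.6, 41.2, 26.6, 30.0 and 24.8 CPM to 112, 89.8, 127, 127 and 122 CPM. The groups did not overlap in either genotype. The log2 fold change was 2.07 ± 0.19 (SE) in WT (4.19-fold, 95% interval 3.21 to 5.47, adjusted p = 2.66e-08, limma) and 1.93 ± 0.16 in KO (3.81-fold, 3.03 to 4.79, adjusted p = 6.10e-08).

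Pfkm, named for muscle, ranged from 54.7 to 77.7 CPM in N_WT and from 46.2 to 84.6 CPM in OGD_WT, with a log2 fold change of -0.04 (95% interval -0.38 to 0.29) in WT and -0.02 (-0.32 to 0.29) in KO. Pfkp, named for platelets, ranged from 211 to 327 CPM in N_WT and from 217 to 387 CPM in OGD_WT, with a log2 fold change of 0.11 (-0.24 to 0.45) in WT and 0.15 (-0.21 to 0.51) in KO. Both sets of groups overlapped. By aligned residues the 3 proteins were 68.4% to 71.7% identical. Of the 50-base words, 8.83% of Pfkm were shared with the same-strand gene Gm26513 and 5.10% of Pfkp with the opposite-strand gene Pitrm1, against 0.03% for Pfkl.

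Pfkfb3, the isozyme with the strongest balance towards synthesis of the activator, rose. It was at 109, 66.9, 91.1, 53.0 and 196 CPM in N_WT and at 272, 499, 303, 376 and 99.2 CPM in OGD_WT. In KO it went from 97.6, 147, 90.1, 102 and 69.8 CPM to 237, 179, 266, 238 and 325 CPM. As for Gpi1, culture 5 made the WT groups overlap, and the KO groups did not overlap. The log2 fold change was 1.54 ± 0.33 (SE) in WT (2.91-fold, 95% interval 1.81 to 4.67, adjusted p = 0.000736, limma) and 1.32 ± 0.19 in KO (2.50-fold, 1.89 to 3.29, adjusted p = 3.16e-05). With the replicate block the WT SE was 0.44 and the adjusted p 0.019 (limma). The log2 responses of the single WT cultures had an SD of 1.56. Without WT culture 5 the WT value was 2.17.

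Pfkfb2, known from heart, ranged from 19.3 to 33.7 CPM in N_WT and from 21.7 to 31.6 CPM in OGD_WT, with a log2 fold change of 0.14 (95% interval -0.19 to 0.47) in WT and 0.18 (-0.19 to 0.56) in KO. Pfkfb4, known from testis and as a gene induced by low oxygen elsewhere, ranged from 5.56 to 9.21 CPM in N_WT and from 5.71 to 10.9 CPM in OGD_WT, with log2 fold changes of -0.12 (-0.49 to 0.25) and -0.27 (-0.74 to 0.21). Both overlapped between conditions. Pfkfb2 shared 17.3% of its 50-base words with other genes, among them the same-strand gene Gm29427 and the opposite-strand gene Yod1.

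**Figure D2:**
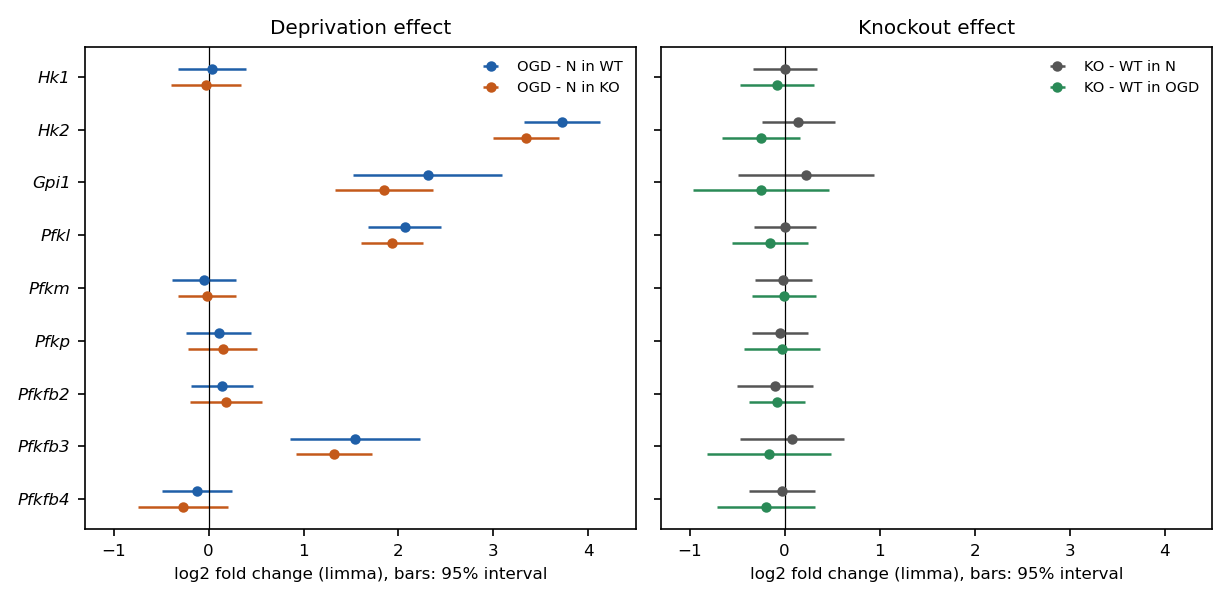
Log2 fold changes (limma, without a culture block) with 95% intervals for deprivation in each genotype (left) and for the knockout in each condition (right). Hk2, Gpi1, Pfkl and Pfkfb3 lie above 0 under deprivation, from 1.32 to 3.72, and every knockout interval includes 0.

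Groups without overlap were seen for 2 of 9 genes in WT (Hk2 and Pfkl), where 26.9% of all genes had none, and for 4 of 9 in KO, where 25.8% had none. In two-sided exact permutation tests of 5 against 5 libraries, Gpi1 had p = 0.0159 and Pfkfb3 p = 0.0238 in WT. The smallest p this design allows, 0.00794, was reached by Hk2 and Pfkl in WT and by the 4 genes that rose in KO.

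The size of the response differed between batch labels for Gpi1 and Pfkfb3, and in part for Hk2, Pfkl and Hk1. Batches 2 and 3.2 hold 1 culture each, and batch 1 holds 1 of each genotype. These 3 batches were pooled here. The labels do not give this pooling, so the lack of overlap rests in part on it. In the 3 cultures of batch 3.1 (WT5, KO2 and KO4) Gpi1 changed by -0.61 to 1.31 on the log2 scale, in the 3 cultures of batch 3.3 (WT2, WT4 and KO5) by 3.30 to 4.32, and in the 4 cultures of batches 1, 2 and 3.2 by 1.90 to 2.18. These 3 ranges did not overlap, although each holds both genotypes. For Pfkfb3 the ranges were -0.97 to 1.23, 2.22 to 2.87 and 1.28 to 1.70, again without overlap. Hk2 changed by 2.55 to 3.02, 3.70 to 4.12 and 3.47 to 4.08, so batch 3.1 lay below the rest while the other ranges overlapped. Pfkl changed by 0.98 to 2.07, 2.29 to 2.83 and 1.90 to 2.25, so only batch 3.3 lay apart. Hk1, which was not called, changed by -0.85 to -0.25 in batch 3.1 and by 0.11 to 0.68 in batch 3.3. In batches 1, 2 and 3.2 it changed by -0.004 to 0.14, which overlapped batch 3.3. For Pfkm, Pfkp, Pfkfb2 and Pfkfb4 the ranges overlapped. Pfkfb2, for example, changed by -0.35 to 0.80 in batch 3.1 and by -0.56 to 0.48 in batch 3.3. Hk2 and Pfkl were higher under OGD in all 10 cultures, and Gpi1 and Pfkfb3 in 9 of 10, the exception being WT culture 5.

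**Figure D3:**
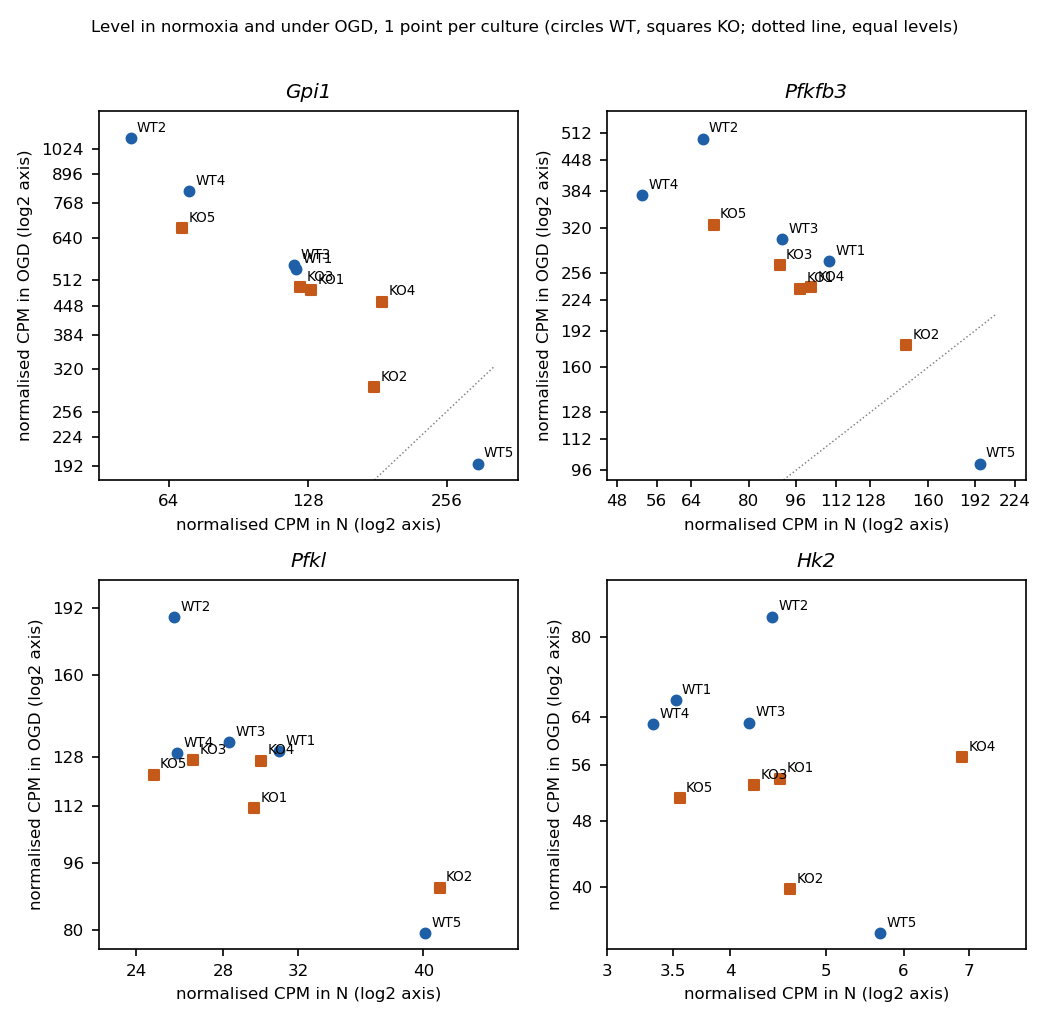
Normalised CPM in normoxia (x axis) against that under deprivation (y axis), both on log2 axes, 1 point per culture (circles WT, squares KO), with a dotted line at equal levels where it falls in the panel. For Gpi1 and Pfkfb3, cultures with a higher level in normoxia tended to have a lower level under deprivation, with exceptions such as KO4 against KO2 for Gpi1, and WT culture 5 lies below the line.

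Cultures that were high in Gpi1 or Pfkfb3 in normoxia tended to be low under OGD. For Gpi1 the standard deviation over 10 cultures was 0.75 (log2) in normoxia and 0.70 under OGD, but 0.12 for the mean of the 2 libraries of a culture, and that mean ranged only from 215 to 291 CPM. For Pfkfb3 the corresponding values were 0.55, 0.63 and 0.12. Hk2 showed less of this pattern, at 0.32, 0.37 and 0.20. Independent libraries would give the mean of N and OGD the same spread as their halved difference. For Gpi1 the halved difference had a standard deviation of 0.72, and over the 13631 genes with reads in every library the mean was the less variable of the pair in 64.5%. Whether the reads had been adjusted for batch before deposit is not given in the sources used here, and the part of batch in these spreads was not tested. If the reads had been adjusted, the p-values and intervals given here would rest on adjusted reads.

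Within a library, the balance of isozymes moved towards the genes that rose, which does not depend on the scaling between libraries. For Hk2 over Hk1 the log2 read ratio went from -5.26 ± 0.21 (SD, n = 5) to -1.45 ± 0.10 in WT and from -5.11 ± 0.44 to -1.62 ± 0.31 in KO. The Hk2 over Hk1 ratio of WT culture 5 under OGD was -1.59, the lowest of a group that reached -1.35. The Pfkl over Pfkm ratio rose by 2.13 in WT and 1.97 in KO, and the Pfkl over Pfkp ratio by 1.98 and 1.80. These 3 ratios had no overlap in either genotype (exact permutation p = 0.00794, adjusted p = 0.037 over 7 ratios in 4 comparisons). The Pfkfb3 over Pfkfb2 ratio differed by 1.40 and 1.14 and the Pfkfb3 over Pfkfb4 ratio by 1.67 and 1.61, with overlapping groups, and neither passed the adjusted test. Pfkp over Pfkm differed by 0.15 and 0.17.

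**Figure D4:**
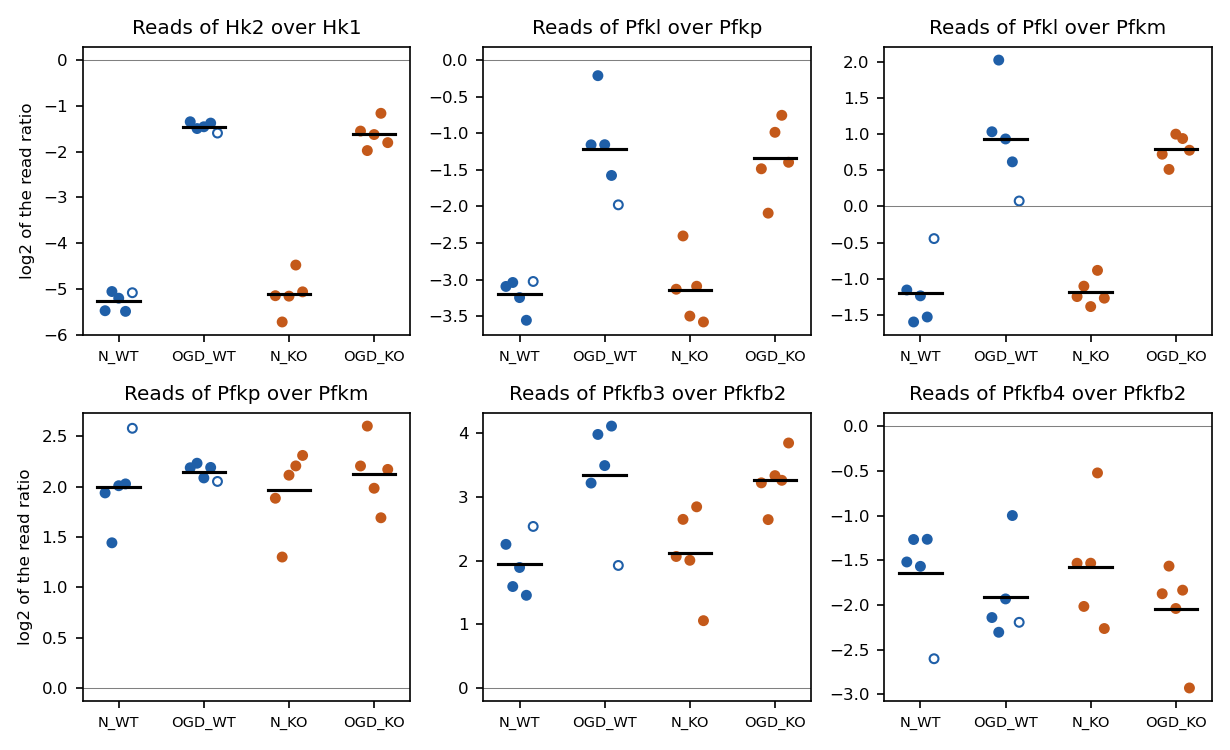
Log2 of the read ratio of 2 isozymes in each library, by group, with bars at group means and WT culture 5 as open circles. The ratios Hk2 over Hk1, Pfkl over Pfkp and Pfkl over Pfkm separate normoxia from deprivation in both genotypes, and Pfkp over Pfkm does not.

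Per kilobase of the transcript that codes for the longest protein, Hk2 made up 1.80% ± 0.25 (SD, n = 5) of hexokinase expression in N_WT. In OGD_WT it made up 20.3% ± 1.1, so Hk1 remained the larger part. In KO the Hk2 share was 2.05% ± 0.63 and 18.6% ± 3.3. Per kilobase of all exons the WT shares were 3.62% and 34.3%. Pfkl made up 8.23% ± 1.22 of phosphofructokinase expression in N_WT and 27.3% ± 9.4 in OGD_WT, while Pfkp made up 67.2% ± 4.6 and 54.9% ± 6.6. The order of Pfkp and Pfkm rests on the length used, since per kilobase of all exons they stood at 44.9% and 45.2% in N_WT. Pfkfb3 was the most abundant PFKFB in every group, at 71.9% ± 6.9 in N_WT and 86.5% ± 7.8 in OGD_WT.

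Across the 9 genes, per kilobase of the transcript that codes for the longest protein, Pfkp was the highest in N_WT at 66.3 ± 10.6 CPM per kilobase (SD, n = 5). It was followed by Pfkfb3 at 46.6 ± 25.3, Gpi1 at 46.0 ± 33.9 and Hk1 at 41.6 ± 4.8, which did not differ beyond their spread. Pfkm stood at 23.8 ± 3.1, Pfkfb2 at 13.9 ± 3.1, Pfkl at 8.09 ± 1.60 and Pfkfb4 at 2.24 ± 0.39. Hk2 was the lowest at 0.767 ± 0.168. Under OGD, Gpi1 led in WT at 222 ± 116 CPM per kilobase, with Pfkfb3 next at 139.8 ± 66.1. The order rests on the length used: per kilobase of all exons Gpi1 (20.6), Pfkp (20.5) and Pfkm (20.5) were level in N_WT, and Pfkfb3 stood at 13.6, below Hk1 at 18.8.

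The knockout did not change these genes detectably. In normoxia limma called 0 of the 9 genes between genotypes, beside 0.0353% of all genes. Under OGD it again called 0 of the 9, beside 0.0282% of all genes. None of the 9 had an unadjusted p under 0.05 in either, and the lowest were 0.442 and 0.218. Of all genes, 256 of 14152 in normoxia and 253 of 14185 under OGD had one, fewer than a share of 0.05. These tests may thus be conservative. Gpi1 had the widest intervals, at 0.23 (-0.49 to 0.94) in normoxia and -0.25 (-0.97 to 0.46) under OGD on the log2 scale. Hk2 differed by 0.14 (-0.24 to 0.53) and -0.25 (-0.66 to 0.16). With batch as a covariate the OGD difference of Gpi1 was 0.11, so its sign rests on the model. Leaving out WT culture 5 moved the Gpi1 difference to 0.58 in normoxia and -0.63 under OGD, and neither was called. This leaves batch 3.1 with KO cultures only, so genotype and batch cannot be told apart in those 2 values. Changes of up to about these interval bounds are not excluded at this number of libraries.

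A difference between genotypes in the response to deprivation was not shown by its own test. The interaction was called for 0 of 9 genes, where 0% of 13688 genes were called by limma and 99 had an unadjusted p under 0.05. That is far below the share of 0.05 that a well-calibrated test gives without any effect. The test may thus be conservative, and a missed difference is not excluded. The KO response minus the WT response was -0.40 (95% interval -1.01 to 0.21) for Hk2, -0.48 (-1.61 to 0.64) for Gpi1, -0.25 (-1.18 to 0.69) for Pfkfb3 and -0.16 (-0.71 to 0.39) for Pfkl. Without WT culture 5, the mean change per culture in KO minus that in WT was -0.67 for Hk2, -1.19 for Gpi1, -0.85 for Pfkfb3 and -0.41 for Pfkl. In batch 3.1 the responses of Hk2, Gpi1 and Pfkfb3 were below those of the other batches. For Pfkl they overlapped, at 0.98 to 2.07 against 1.90 to 2.25 in batches 1, 2 and 3.2. WT culture 5 was the only WT culture of batch 3.1, and the KO cultures of that batch stayed in. Genotype and batch therefore cannot be told apart in these values. The exact permutation p was 0.0159 for Hk2, 0.111 for Gpi1, 0.135 for Pfkfb3 and 0.222 for Pfkl, and none passed after adjustment over the 9 genes (0.143 for Hk2).

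Genes of neighbouring pathways were read from lists written from general knowledge. Of 10 measured genes of lower glycolysis and lactate dehydrogenase, 8 rose and 1 fell in each genotype, where 21.6% of all genes rose and 22.8% fell in WT and 21% and 19.9% in KO. Ldha, which regenerates NAD+ by making lactate, had log2 fold changes of 1.81 in WT and 1.52 in KO, Eno1 of 1.73 and 1.36, and Pgk1 of 1.52 and 1.30. Eno2, the neuronal enolase, fell by 1.03 and 1.13 on the log2 scale. Aldoa is not analysed here. Of 5 measured glucose transporters 1 rose in each genotype, and 2 fell in WT and 1 in KO, and 1 of 5 is near the share of all genes that rose. Slc2a1, the widespread basal transporter, rose by 3.95 and 3.50, and Slc2a13, a myo-inositol transporter, fell by 0.94 and 0.82.

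Tigar, which degrades fructose 2,6-bisphosphate and so acts against the PFKFB kinases, fell by 1.43 in WT and 1.23 in KO on the log2 scale. Of 8 pentose phosphate genes, Rpia rose by 0.99 and 0.98 and H6pd fell by 1.03 and 0.97, and the other 6 were not called in either genotype. Of 8 measured glycogen genes 4 rose in WT and 5 in KO, beside 21.6% and 21% of all genes, including Gys1, glycogen synthase, by 1.32 and 1.26. Pfkfb1, a liver isozyme, fell by 0.74 and 0.83 from few reads. Of the 3 mitochondrial channels that dock hexokinase, Vdac3 (named after its values were seen) fell by 0.43 on the log2 scale in WT, and its value of -0.40 in KO was not called. Neither of the 2 genes that start the hexosamine pathway was called.

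**Figure D5:**
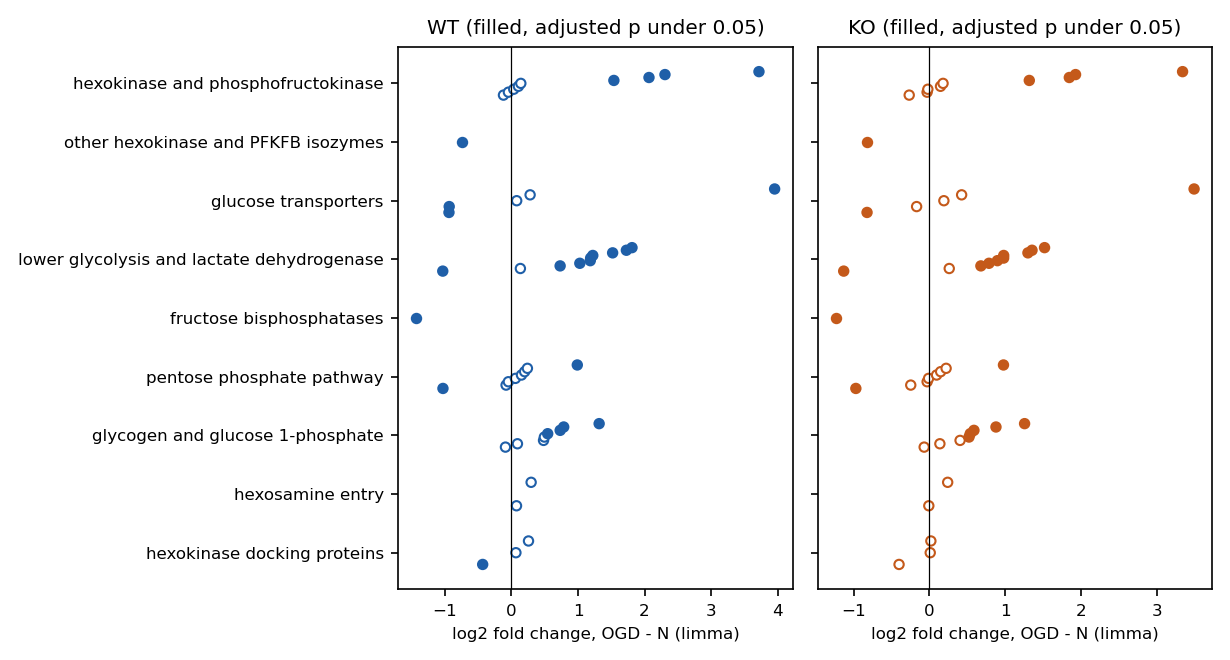
Log2 fold changes under deprivation (limma) for the 9 genes and for each pathway list, in WT (left) and KO (right), with filled points for adjusted p under 0.05. The filled points of lower glycolysis lie above 0 except Eno2, at -1.03 and -1.13.

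The genes with the most similar profiles were found by the mean absolute difference of centred log2 values over 20 libraries. Hk2 was nearest to Slc2a1 (0.22), then Vegfa (0.37) and Ccn1 (0.38), against a median of 1.81 over all genes. The distance includes the change under OGD, so a gene that rose lies far from genes that did not. These 3 genes rose by 3.95, 3.29 and 3.79 on the log2 scale in WT. Gpi1 was nearest to ENSMUSG00000096954 (0.24), Bnip3 (0.24) and P4ha2 (0.25), Pfkl to Kdm7a (0.13), Srf (0.15) and Stk17b (0.15), and Pfkfb3 to Rlf (0.19), Egln1 (0.20) and Ldha (0.20). Among the 9 genes, Gpi1, Pfkl and Pfkfb3 lay 0.34 to 0.35 from each other, and Hk2 lay 0.80 to 1.08 from them. Of the genes that were not called, Hk1 was nearest to Parg (0.08), Pfkm to Coa5 (0.08), Pfkp to Ncoa3 (0.11), Pfkfb2 to Ikbkb (0.08) and Pfkfb4 to Ppp1r2 (0.11).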

How the data were processed

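RNA sequencing libraries of 20 cultures and conditions were analysed from 4 tables, 1 per comparison. The deposited values are log2 CPM, as the table names and values show. The genome build is mm10 per the submitters' processing notes; the aligner, counter, gene filter and any batch adjustment are not given in the sources used here. In each gene and group of 5 the extreme values had been drawn inwards (weight 0.6 on the extreme, 0.4 on its neighbour), which was inferred from the values and undone. As deposited, 45.5% to 92.8% of values per library were whole reads, and afterwards 99.9% to 99.99% were, within 0.05 reads and up to 500 reads.

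Each table was fitted with limma 3.58.1 (R 4.3.3, lmFit and eBayes with trend), without a block; genes with a two-sided p below 0.05 after Benjamini-Hochberg adjustment were called. Normalised CPM are recovered reads of the 13688 shared genes scaled by median-of-ratios size factors. The interaction used a prior count of 2 and culture as a block through duplicateCorrelation, whose consensus correlation was -0.19. Read ratios were compared by exact permutation. Lengths and 50-base words come from GENCODE mouse release 21 and promoters from RefSeq, and all 9 genes matched. The length of a gene is that of its transcript with the longest protein, and the longer transcript where proteins tie. For Pfkfb2 it is 1759 bases against 7254 of all exons, and for Pfkfb3 2216 against 7561. The fit and the undoing were tested on simulated data.

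Libraries of the same number and genotype share a culture label and a batch, so the labels pair them. Their deviations from the group means correlated between -0.64 and 0.06 in WT and between -0.79 and -0.07 in KO, so they were mostly opposite. The fits without a block leave this out. With the replicate block the SE was larger in both genotypes for Gpi1, Pfkfb3, Pfkl, Hk1 and Pfkm. For Pfkl it was 0.22 against 0.19 in WT and 0.18 against 0.16 in KO. For Hk2 it was larger in WT only (0.22 against 0.19), and for Pfkp, Pfkfb2 and Pfkfb4 in KO only. Where the SE was larger, the printed intervals are too narrow for paired libraries. Cultures of different genotypes with the same number share only that number, except that WT1 and KO1 also share batch 1. The series' design text speaks of biological replicates. The 9 genes, lists and tests were chosen with earlier results of these data known. Named pathway genes were the up to 3 with the largest rise and fall among those called in both genotypes, and the 3 nearest profiles (for genes that were not called, the nearest) are named. Alternatives comprised the deposited values, a mean log2 CPM of at least 1, other scalings and prior counts, voom, no trend, a replicate block, batch 3 alone, batch as a covariate and leaving out each library; leaving out WT culture 5 was added after seeing the data. Microglia markers are not reported here.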

Additional observations from a re-analysis of the deposited data

Results flagged for a closer look

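Of 82 groups of 5 values examined, 6 had an extreme value far from the other 4, and chance flags about 1 in 20, or 4.1 here. In N_WT, culture 5 had the highest Hk1 level, at 7.589 log2 CPM against 7.20 to 7.29 in the others, and the lowest Pfkfb4 level, at 2.4739 against 2.99 to 3.20. The same library had the lowest Pfkfb4 over Pfkfb2 log2 read ratio, at -2.6013 against -1.57 to -1.27. The Hk2 response of WT culture 5 was 2.5547 on the log2 scale against 3.77 to 4.12 in the other WT cultures. Under OGD, WT culture 4 had the highest Pfkfb4 over Pfkfb2 log2 ratio, at -1 against -2.31 to -1.93. In N_KO, culture 2 had the highest Pfkfb3 over Pfkfb4 log2 ratio, at 4.6649 against 3.32 to 3.60. Of these 6 values, 5 come from cultures of batch 3.1 (WT5 and KO2) and none of the causes was tested.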

How the results depend on the processing

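The count of the 9 genes called was 4, 4, 0, 0 and 0 in the 5 tests under every alternative run, and no called value changed sign. Values that were not called did: Gpi1 between N_KO and N_WT ranged from -0.18 to 0.58, Gpi1 between OGD_KO and OGD_WT from -0.63 to 0.11, and Hk1 between OGD_WT and N_WT from -0.24 to 0.26. Genes called between OGD_KO and N_KO were 2341 with batch 3 cultures alone, where fewer samples enter. Between N_KO and N_WT, where 5 genes were called, the count was 9 with deposited values, 3 with the low-value filter, 3 with the replicate block, 2 with batch 3 alone, 11 with batch as a covariate and 3 to 5 without single libraries (3 without N_KO culture 2). Between OGD_KO and OGD_WT, where 4 were called, it was 12 with deposited values, 1 with median-of-ratios scaling and a prior count of 0.5 together, 2 with total-read scaling and a prior count of 2 together, 2 with the replicate block, 17 with batch as a covariate and 1 to 7 without single libraries. Read ratios called under OGD were 3 of 7 in each genotype and 5 in WT and 5 in KO with reads of the deposited values. Without single libraries they ranged from 3 to 5 in WT, with 5 reached without N_WT culture 5, and from 2 (without OGD_KO culture 4) to 3 in KO. Without WT culture 5 altogether 0 were called, since 4 against 4 allows no p below 0.0286. Apart from the causes that follow from fewer samples, the cause was not tested. The replicate block kept Hk2, Gpi1, Pfkl and Pfkfb3 called, with an adjusted p (limma) of 0.019 for Pfkfb3 in WT. For the paired sign-flip of the ratios the smallest exact p is 0.0625, so it cannot pass. Depth limits Hk2 in normoxia and Pfkfb4 most, with as few as 36 and 18 reads in a library.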
